A study of Mus musculus with 14 samples.

Results

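Complement was described by 9 genes, C1qa, C1qb, C1qc, C4b, C3, Cfb, Cfp, C3ar1 and C5ar1, which were chosen by symbol as components of the cascade and receptors of its fragments. Probes were assigned to them through the RefSeq transcript that each probe names, which gave 13 of the 56605 probes on the array. Of these genes 8 were bright enough to be tested, read from 12 tested probes, among 24908 genes or transcripts and 31766 probes tested in all. C3ar1 was the gene that was not.

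The arrays come from a study of the role of STING in collagen-induced arthritis. Spleen RNA was taken from 7 WT mice of the strain C57BL/6 and from 7 Sting gt/gt mice (Tmem173gt), with 1 array hybridised per mouse. The spleens were taken 2 weeks after an intradermal injection of chicken type II collagen (CII) in complete Freund's adjuvant (CFA). By the study's methods, all mice were aged 10 to 14 weeks when the model was induced. No mouse without the injection was on these arrays, so every difference is between genotypes under the same immunization, before the booster of the arthritis protocol. The golden ticket allele arose by chemical mutagenesis on a C57BL/6 background and acts in every cell of the animal. By the study's methods the WT and Sting gt/gt mice came from separate sources, and the labels name no littermates, so genotype and colony cannot be told apart. The spleens were pressed to single cells and red blood cells were lysed in the study's cell preparation, and no cell type was sorted before RNA extraction. Agilent's scanner software gave a 75th percentile signal of 416 to 550 on the WT arrays and of 403 to 490 on the Sting gt/gt arrays. Levels below are log2 signal minus the 75th percentile of the same array, so that 0 marks a probe at that percentile. Replicates 1 to 3 of both genotypes (6 arrays) were scanned on 1 day and replicates 4 to 7 (8 arrays) on another, and the scan day is known only as a scan time.

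Complement is a set of plasma and cell-derived proteins that tag antibody complexes, microbes and dying cells. C1q binds antibody and opens the classical pathway through C4 and C2, factor B and properdin drive the alternative pathway, and both meet at C3, whose cleavage coats surfaces and releases the small fragment C3a, followed downstream by C5a. In the spleen, macrophages are a known source of C1q, and complement on immune complexes helps B cells and follicular dendritic cells to capture antigen.

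The cells on the arrays carried the markers of a spleen preparation. In all 14 cell type lists, from red pulp macrophages to endothelial cells, every listed marker with a probe was bright enough to be tested, while Ly6g and Trac had no matching probe. Sting1 itself lay at 3.10 ± 0.17 (SD, n = 7) in WT and 3.14 ± 0.11 (SD, n = 7) in Sting gt/gt mice, a log2 fold change of 0.04 (exact permutation p = 0.606). The allele is a point change that leaves the transcript in place, so this level does not check the genotype labels.

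Over all 14 arrays, no complement gene differed between the genotypes by more than the spread between mice. By limma, 0 of the 8 tested members passed an unadjusted p under 0.05, where 3.54% of all genes did, and 0 passed an adjusted p under 0.05, where 0.00401% did, a single transcript (NM_008710) outside the set. The adjusted p of every member was 0.999, and the exact permutation test over every split of the arrays into 7 and 7 also put 0 members under 0.05. The groups overlapped in all 8 members, and 0.0482% of all genes showed no overlap. Log2 fold changes, Sting gt/gt minus WT, ran from -0.02 for Cfp to 0.22 for C5ar1 with a median of 0.10, beside a median of 0.02 over all genes, of which 55.8% were higher in Sting gt/gt mice. The signs were 7 higher and 1 lower, but those of all members except C1qc turned under another setting. C1qa and C1qb stood at -0.02 and -0.03 when no scaling between arrays was applied. With slide as a fixed block, which rests on 5 arrays, C4b stood at -0.20, C3 at -0.25, Cfb at -0.05 and C5ar1 at -0.18, and with slide as a random block C4b stood at -0.00076 and C3 at -0.06. Cfp stood at 0.01 on scan day 1 alone.

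The count over the whole array depended on the model. At an unadjusted p under 0.05, 882 genes passed, and 477 of them (54.1%) were higher in Sting gt/gt mice. Median centring put 250 of 818 higher (30.6%), and no scaling put 149 of 763 higher (19.5%). With the replicate block the count was 1408, and the members passing were again 0. With array weights and an intensity trend, changed together, it was 5660, and C5ar1 alone among the members then passed, at a log2 fold change of 0.45. With scan day in the model, 0 of 8 members passed, where 7.24% of all genes did.

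**Figure D1:**
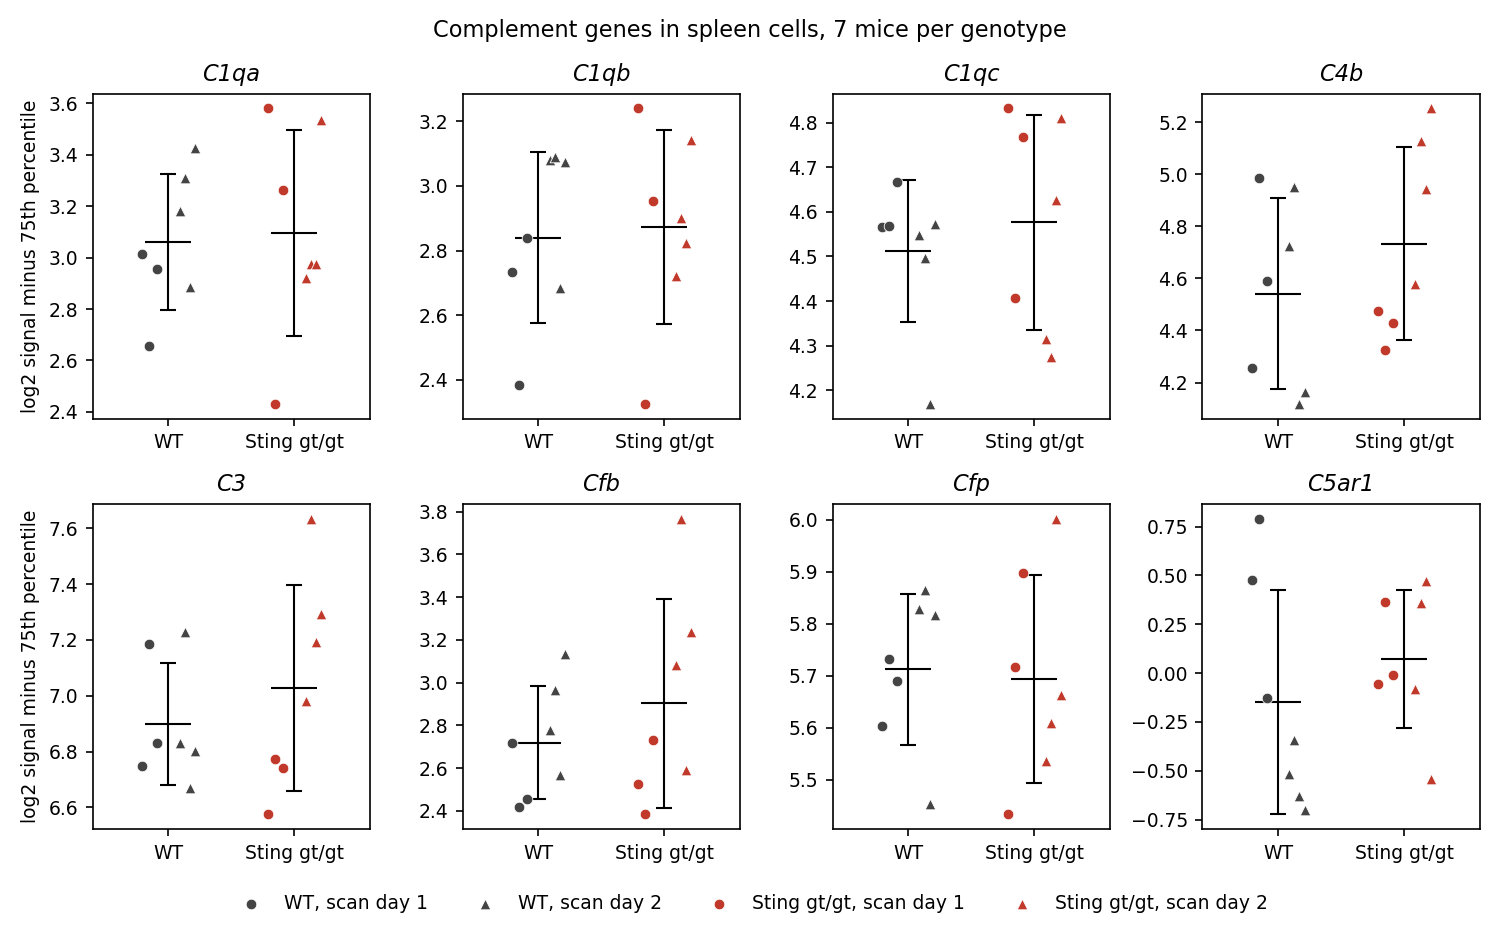
Level of each tested complement gene in every mouse, as log2 signal minus the array's 75th percentile, with WT in grey and Sting gt/gt in red, circles for scan day 1 and triangles for scan day 2; black lines are the mean and SD of 7 mice. The genotypes overlap in all 8 panels, and among Sting gt/gt mice C3 is at or below 6.77 on scan day 1 and at or above 6.98 on scan day 2.

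C1q, the antibody-binding unit of the classical pathway, is assembled from the products of C1qa, C1qb and C1qc. C1qa, which encodes the A chain, spanned 2.66 to 3.43 (median 3.02) among WT and 2.43 to 3.58 (median 2.98) among Sting gt/gt animals. The highest and the lowest level both belonged to Sting gt/gt mice, replicates 1 and 2, so the WT values lay inside the range of the other group. The means were 3.06 ± 0.26 and 3.10 ± 0.40 (SD, n = 7 each), a log2 fold change of 0.04 with a 95% interval of -0.34 to 0.41 (exact permutation p = 0.844). In bulk RNA, fewer cells of a type and less RNA per cell cannot be told apart, here or for any other member.

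C1qb, the B chain, had its lowest, median and highest WT level at 2.38, 2.84 and 3.09, and its Sting gt/gt levels at 2.33, 2.90 and 3.24. Replicate 2 was the lowest mouse in both groups, and replicate 1 the highest of the Sting gt/gt mice. Its log2 fold change was 0.03 with a 95% interval of -0.29 to 0.35 (exact permutation p = 0.831). C1qc, the C chain, spanned 4.17 to 4.67 (median 4.57) in the WT group and 4.28 to 4.83 (median 4.63) in the other. WT replicate 6 stood below all other mice, and 3 Sting gt/gt mice (replicates 1, 3 and 7) stood above every WT mouse. The difference in C1qc was 0.06 (95% interval -0.19 to 0.32, exact permutation p = 0.563). Without WT replicate 6 it was 0.007, so most of it rests on that mouse. For none of the C1q chains was the difference larger than the spread between mice, and the intervals ran from 0.792-fold to 1.33-fold for C1qa and from 0.878-fold to 1.25-fold for C1qc.

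The chains varied together from mouse to mouse, C1qa and C1qb most closely. After the mean of each genotype on each scan day was removed, C1qa and C1qb correlated at 0.95, C1qa and C1qc at 0.82, and C1qb and C1qc at 0.78 over the 14 arrays, given as a description. Sting gt/gt replicate 2 was low in all of them, with deviations of -0.66, -0.51 and -0.26 for C1qa, C1qb and C1qc, and WT replicate 6 likewise with -0.32, -0.30 and -0.28. Sting gt/gt replicates 1 and 7 were high in all of them. Within scan day 1 (6 arrays) C1qa and C1qb gave Pearson's r = 0.98 (exact permutation p = 0.00278, adjusted 0.0824) and Spearman's rho = 0.94 (exact permutation p = 0.0167, adjusted 0.233). Without the 2 arrays farthest from the median of C1qa, r was 0.94. Within scan day 2 (8 arrays) r was 0.91 (exact permutation p = 0.00367, adjusted 0.0824) and rho 0.93 (exact permutation p = 0.00223, adjusted 0.0625), and without the 2 farthest arrays r was 0.94. On scan day 2 the values of C1qc leaned more on single arrays. With C1qa its r was 0.78 (exact permutation p = 0.0269, adjusted 0.251) and its rho 0.69 (exact permutation p = 0.0694, adjusted 0.486), and r was 0.58 without the 2 arrays farthest from the median of C1qa. With C1qb its r was 0.74 (exact permutation p = 0.042, adjusted 0.33) and its rho 0.62 (exact permutation p = 0.115, adjusted 0.498), and r was 0.43 without the 2 arrays farthest from the median of C1qb, so that relation rests in part on those arrays. On scan day 1 the r of C1qc was 0.94 with C1qa and 0.93 with C1qb (exact permutation p = 0.0111 and 0.0139, adjusted 0.156 for both), with rho of 0.83 and 0.94 (exact permutation p = 0.0583 and 0.0167, adjusted 0.467 and 0.233), and r was 0.78 and 0.79 without the 2 farthest arrays. The values within a scan day pool both genotypes, and the permutation did not keep them apart, so a shared difference between genotypes counts towards r and p. With the genotype means removed, r on scan days 1 and 2 was 0.98 and 0.91 for C1qa with C1qb, 0.94 and 0.85 for C1qa with C1qc, and 0.92 and 0.82 for C1qb with C1qc, given without a test. These relations belong to a family of 56, all pairs of members on both scan days, which was added after the data were seen and in which 0 had an adjusted p under 0.05.

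The genes lie side by side on chromosome 4, in the order C1qb, C1qc, C1qa, with Ephb2 before and Epha8 after them. Since these members moved together, the bases before the start of C1qb and C1qc are shown, from the RefSeq promoter table of build GRCm38.p6, in which 6 of the 9 members were matched and C1qa, C4b and Cfb were not. C1qb lies at chr4:136886201-136886450 on the minus strand and C1qc at chr4:136892937-136893164 on the minus strand. Capitals mark motif matches, which in C1qb are a pair of overlapping matches of NF-kB type and in C1qc 1 of PU.1 type followed by 1 of NF-kB type.
C1qb: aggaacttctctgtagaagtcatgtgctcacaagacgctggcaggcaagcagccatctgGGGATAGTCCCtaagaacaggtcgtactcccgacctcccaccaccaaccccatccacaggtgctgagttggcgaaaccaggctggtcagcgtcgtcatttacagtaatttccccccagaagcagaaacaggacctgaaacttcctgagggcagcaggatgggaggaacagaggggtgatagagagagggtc
C1qc: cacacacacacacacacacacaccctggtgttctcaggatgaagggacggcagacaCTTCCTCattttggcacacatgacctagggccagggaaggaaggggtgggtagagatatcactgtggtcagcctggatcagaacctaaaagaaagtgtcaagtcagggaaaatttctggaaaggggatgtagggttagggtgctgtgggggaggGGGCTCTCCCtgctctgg
The motifs, searched on both strands, were GAGGAAG (PU.1 type), TGCTGAC (MAF type), GAAA followed by any 2 bases and GAAA (IRF type), TTCNNNGAA (STAT type) and GGGA followed by any 4 bases and CC (NF-kB type). Of 32851 promoter windows in the table, 10.6% held the PU.1 type, 3.81% the MAF type, 2.98% the IRF type, 7.02% the STAT type and 17.6% the NF-kB type. A match describes letters and not a bound factor. The promoters of C3ar1, C5ar1 and Cfp held 0 matches in the window of 250 bases searched. For C5ar1, 48 of these bases lie outside the span of the gene itself.

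C4b encodes the C4 protein that C1s cleaves and that then forms the classical C3 convertase with C2. Its brighter probe read 4.12 at the lowest, 4.59 at the median and 4.98 at the highest of the WT mice, against 4.32, 4.58 and 5.25 for Sting gt/gt. The highest 2 mice were Sting gt/gt replicates 7 and 5, while WT replicates 6, 7 and 1 lay below all others. The means, 4.54 ± 0.37 and 4.73 ± 0.37 (SD, n = 7 each), gave a log2 fold change of 0.19 with a 95% interval of -0.21 to 0.59 (exact permutation p = 0.338). Without Sting gt/gt replicate 7 this log2 fold change was 0.11. The other C4b probe gave 0.22 (exact permutation p = 0.374), so both probes had the same sign and overlapping groups.

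C3 is the protein on which the pathways converge. Its brighter probe spanned 6.67 to 7.23 around a WT median of 6.83, and 6.58 to 7.64 around a Sting gt/gt median of 6.98. The Sting gt/gt mice were split by scan day, since replicates 1 to 3 were at or below 6.77 and replicates 4 to 7 at or above 6.98. No such gap was seen in WT mice, where replicates 2 and 5 were the high ones. The means were 6.90 ± 0.22 and 7.03 ± 0.37 (SD, n = 7 each), with a log2 fold change of 0.13 and a 95% interval of -0.21 to 0.47 (exact permutation p = 0.448). The other C3 probe gave 0.17 (exact permutation p = 0.278). Without Sting gt/gt replicate 5 the log2 fold change of C3 was 0.03, so most of it rests on that mouse.

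C4b and C3, which act in sequence, also varied together. With the means of genotype and scan day removed, they correlated at 0.78 over the 14 arrays. On scan day 2 alone (8 arrays), with both genotypes pooled and their means left in, r was 0.87 (exact permutation p = 0.00442, adjusted 0.0824) and rho 0.95 (exact permutation p = 0.00114, adjusted 0.0625), and without the 2 arrays farthest from the median of C4b r was 0.78. Both genes stood higher in Sting gt/gt mice that day (0.49 and 0.39), which counts towards that r and p, and with the genotype means removed r was 0.78 on either scan day. On scan day 1 (6 arrays), pooled in the same way, r was 0.82 (exact permutation p = 0.0847), but 0.11 without the 2 farthest arrays, so on that day the relation rests on those arrays. C3 is shown next for its place in this pair, at chr17:57228137-57228386 on the minus strand of the same build, with its 3 matches of NF-kB type in capitals.
C3: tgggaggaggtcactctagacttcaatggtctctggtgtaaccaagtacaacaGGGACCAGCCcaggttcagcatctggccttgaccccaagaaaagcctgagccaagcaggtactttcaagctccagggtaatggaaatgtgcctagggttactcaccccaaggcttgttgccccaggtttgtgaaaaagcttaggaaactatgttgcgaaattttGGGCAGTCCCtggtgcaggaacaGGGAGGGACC
C4b and C3 are on chromosome 17 but are not neighbours there, since C4b is followed by Cyp21a1 and C3 by Trip10.

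Cfb encodes factor B, which supplies the protease of the alternative C3 convertase, and its brighter probe gave 2.42, 2.72 and 3.14 as the lowest, median and highest WT level and 2.38, 2.73 and 3.77 for Sting gt/gt. A single mouse, Sting gt/gt replicate 5, stood well above the rest, and replicate 7 was also above the highest WT mouse, while the other 5 lay lower, among or below the WT values. The log2 fold change was 0.18 with a 95% interval of -0.24 to 0.61 (exact permutation p = 0.413), and 0.26 on the other probe (exact permutation p = 0.322). Without Sting gt/gt replicate 5 it was 0.04, so most of it rests on that mouse. Between the scan days, whatever the genotype, Cfb was higher on scan day 2 by 0.48 on the log2 scale (limma adjusted p = 0.0275), the 1 of 8 members with an adjusted p under 0.05 between days, where 38.8% of all genes passed, so the share of members was below the background. C5ar1 stood at -0.49 between the days (95% interval -0.93 to -0.05, limma adjusted p = 0.075). Cfb lies next to C2 on chromosome 17.

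Properdin, the product of Cfp, stabilises the alternative convertase. The WT levels of Cfp spanned 5.45 to 5.86 (median 5.73) and the Sting gt/gt levels 5.43 to 6.00 (median 5.66). Sting gt/gt mice held the lowest value (replicate 1) and the 2 highest (replicates 6 and 3), with the WT mice between them. The fold change was -0.02 on the log2 scale, with a 95% interval of -0.25 to 0.21 (exact permutation p = 0.848), and -0.01 on the other probe (exact permutation p = 0.953). Among the members, Cfp and C1qc had the narrowest intervals, and for Cfp its upper bound was 1.16-fold.

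C3ar1, the receptor of C3a, was not measurable in these cells. Its probe was well above background on 1 of 7 WT arrays and on 0 of 7 Sting gt/gt arrays, so no fold change is given. C5ar1, the receptor of C5a and a known receptor of neutrophils and monocytes, could be read on all 14 arrays. Its WT levels spanned -0.70 to 0.79 around a median of -0.34, and its Sting gt/gt levels -0.54 to 0.47 around -0.01. WT replicates 2 and 1 were the highest mice and WT replicates 4, 6 and 7 were low, together with Sting gt/gt replicate 7. The means were -0.15 ± 0.57 and 0.07 ± 0.35 (SD, n = 7 each), a log2 fold change of 0.22 with a 95% interval of -0.28 to 0.73 (exact permutation p = 0.391). C5ar1 had the widest interval of the members, with an upper bound of 1.65-fold. C5ar2, which encodes the other C5a receptor and lies beside C5ar1 on chromosome 7, gave 0.14 (exact permutation p = 0.357).

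The scan days were then taken apart, since each holds both genotypes. On scan day 1, 3 WT mice were compared with 3 Sting gt/gt mice, and 0 of 8 members passed limma's unadjusted p under 0.05, where 3.77% of all genes did. Log2 fold changes that day ran from -0.28 for C5ar1 to 0.22 for C1qa, with C3 at -0.22 and C4b at -0.20, which were -0.09 and -0.01 without WT replicate 2, and the signs of Cfb and Cfp (0.02 and 0.01) turned under median centring. The smallest exact permutation p that 20 splits can give is 0.1, so that test cannot pass on this day. Single arrays moved limma's calls. C1qa passed at 0.55 without Sting gt/gt replicate 2, and C5ar1 passed at -0.53 without WT replicate 3. In the other direction, C1qa turned to -0.03 without Sting gt/gt replicate 1, and C5ar1 stood at -0.07 without WT replicate 2.

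On scan day 2, with 4 mice per genotype, C3 and C5ar1 passed limma's unadjusted p under 0.05, both higher in Sting gt/gt mice. They were 2 of 8 members where 23.7% of all genes passed, so the share of members was near the background and is no result about the set. With adjustment 0 of 8 members passed, where 1.27% of all genes did, and the groups overlapped in all 8 members, where 15.1% of all genes showed no overlap. The WT levels of C3 that day spanned 6.67 to 7.23 and the Sting gt/gt levels 6.98 to 7.64. WT replicate 5 alone lay among the Sting gt/gt values. The log2 fold change of C3 was 0.39 with a 95% interval of 0.01 to 0.77 (limma p = 0.0437, adjusted 0.197; exact permutation p = 0.0857). For C5ar1 the WT levels spanned -0.70 to -0.34 and the Sting gt/gt levels -0.54 to 0.47, with Sting gt/gt replicate 7 among the WT values. Its log2 fold change was 0.60 with a 95% interval of 0.12 to 1.08 (limma p = 0.0201, adjusted 0.140; exact permutation p = 0.0857). The smallest exact permutation p that 70 splits can give is 0.0286.

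These calls were not stable to single arrays. C3 no longer passed without WT replicates 4, 6 or 7 (log2 fold changes of 0.38, 0.32 and 0.37) or without Sting gt/gt replicates 5, 6 or 7 (0.27, 0.42 and 0.39). C5ar1 no longer passed without WT replicate 7 (0.55) or without Sting gt/gt replicates 5 or 6 (0.49 and 0.46). C4b, at 0.49 over all arrays of the day (95% interval -0.01 to 0.98, exact permutation p = 0.143), passed limma's threshold without WT replicates 4 or 5 (0.57 and 0.64) or Sting gt/gt replicate 4 (0.62). Its other probe, fitted among all tested probes, passed over all arrays of the day at 0.55 (limma p = 0.0404, adjusted 0.196, exact permutation p = 0.114). Cfb, at 0.31, passed without Sting gt/gt replicate 6 (0.50), but stood at 0.11 without Sting gt/gt replicate 5. Scaling moved calls as well: without scaling C3 stood at 0.33 and did not pass, and with median centring C4b stood at 0.51 and passed. C1qa, C1qb and Cfp lay at -0.10, -0.09 and -0.04 on scan day 2, and C1qc at 0.06, which turned to -0.03 in the authors' series table. On this day the WT arrays lie on 2 slides and the Sting gt/gt arrays on 1 other slide, so slide and genotype cannot be told apart.

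**Figure D2:**
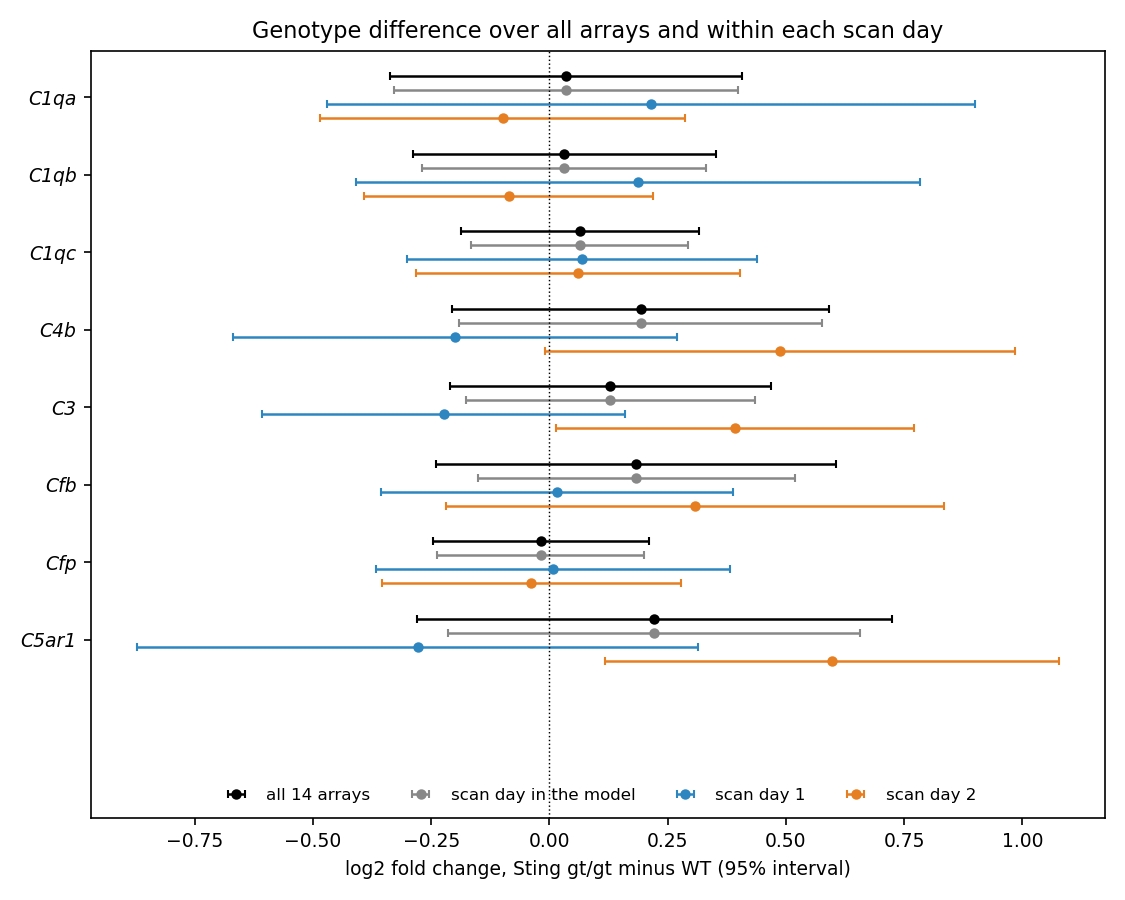
Log2 fold change of each tested complement gene, Sting gt/gt minus WT, with its 95% interval from limma, over all 14 arrays (black), with scan day in the model (grey), and within scan day 1 (blue) and scan day 2 (orange). Intervals over all arrays include 0 for all 8 genes, while the points of C3 and C5ar1 lie below 0 on scan day 1, with intervals that include 0, and above 0 on scan day 2.

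The difference between the days was tested itself, as an interaction of genotype and scan day. Its permutation p shuffles genotypes within each scan day, which is exact only where genotype has no effect on either day. C3 and C5ar1 passed an unadjusted p under 0.05, 2 of 8 members where 18.4% of all genes passed, and with adjustment 0 of 8 did, where 0.49% of all genes did, so again the share was near the background. The genotype difference in C3 was larger on scan day 2 than on scan day 1 by 0.62 on the log2 scale (95% interval 0.09 to 1.14, limma adjusted p = 0.202, exact permutation p = 0.0171 within scan days). In C5ar1 it was larger by 0.88 (95% interval 0.12 to 1.63, limma adjusted p = 0.21, exact permutation p = 0.0443). C4b stood at 0.69 (95% interval -0.01 to 1.39, exact permutation p = 0.0643), and C4a, a close relative of C4b, at 0.93 (exact permutation p = 0.0471, limma adjusted p = 0.236). The other C3 probe gave 0.59 (exact permutation p = 0.0157).

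Cell type markers also differed on scan day 2, when 23.7% of all genes passed. All 6 B cell markers were lower in Sting gt/gt mice and passed limma's unadjusted p under 0.05, at a median of -0.49 on the log2 scale. Their summed signal was 131 to 188 times the 75th percentile in WT and 106 to 125 in Sting gt/gt mice, with the probe of Cd79b the brightest. Of the 5 plasma cell markers, 4 passed and were higher, with a median of 0.60 over the list and a summed signal of 102 to 131 in WT and 143 to 197 in Sting gt/gt mice, with that of Jchain the brightest. Of 11 neutrophil markers 4 passed, with Cxcr2, Mmp9 and Mpo higher and Csf3r lower (-0.32), a list median of 0.30, a summed signal of 1236 to 1390 in WT and 1118 to 1844 in Sting gt/gt mice, and the probe of S100a9 the brightest. Of 11 macrophage and monocyte markers 3 passed, all higher, a share near that of all genes, with a median of 0.15, a summed signal of 171 to 220 in WT and 180 to 251 in Sting gt/gt mice and the probe of Ly6c2 the brightest. In the red pulp macrophage, marginal zone macrophage, T cell and NK cell lists 0 markers passed on that day, and in each of the dendritic cell, platelet and endothelial lists 1 or 2 did. Of 10 stromal markers 2 passed, Col1a1 (0.63) and Col3a1 (0.64), a share no higher than that of all genes. The stromal list had a median of 0.27, with 7 markers higher and 3 lower. On scan day 1 Col1a1 and Col3a1 stood at -0.61 and -0.48, with a list median of -0.23. On scan day 1 the medians were 0.24 for B cells, with all 6 markers higher, -0.14 for plasma cells, with all 5 lower, -0.11 for neutrophils and 0.05 for macrophages and monocytes, and over all 14 arrays 0 markers of these lists passed. None of the markers in these lists was too dim to be tested. Their part in the values of C3, C4b and C5ar1 was not tested.

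Macrophage markers were also read beside the C1q chains, over all 14 arrays. Red pulp macrophage markers gave 0 of 9 past limma's unadjusted p under 0.05, median 0.07, with a summed signal of 252 to 345 in WT and 252 to 387 in Sting gt/gt mice and the probe of Hmox1 the brightest. Marginal zone macrophage markers gave 0 of 4, median -0.09, a summed signal of 49.0 to 74.7 in WT and 45.5 to 78.6 in Sting gt/gt mice and that of Marco the brightest. In the remaining lists the median log2 fold change ran from -0.29 for erythroid cells to 0.19 for NK cells, and the brightest probes were those of Cd3d for T cells, Itgax for conventional and Siglech for plasmacytoid dendritic cells, Gzma for NK cells, Hba-a1 for erythroid cells, Pf4 for platelets, Mfge8 for stromal cells and Stab2 for endothelium. Probes differ in how strongly they bind, so brightness does not rank transcripts. Summed signals also differed between the scan days. In WT mice they were 2062 to 2138 on scan day 1 and 1236 to 1390 on scan day 2 for neutrophils, and 218 to 234 and 70.5 to 85.1 for plasmacytoid dendritic cells.

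C5ar1, C1q and the other members each had genes whose pattern across mice was nearest to theirs. These were found by Pearson's r among 14714 genes with a symbol over the 14 arrays, with the means of genotype and scan day removed, and the values are a description. Nearest to the mean of the C1q chains were Lpl (0.94), Gtf2ird1 (0.93) and Dnajb13 (0.92). C4b was nearest to Tmtc1 (0.96), Tenm3 (0.94) and Fgfr1 (0.93), and C3 to Itga2 (0.86), Wdr92 (0.86) and Scara5 (0.85). For Cfb they were Sulf1 (0.88), Rpl37 (0.86) and 1110051M20Rik (0.86), but Sulf1 and Rpl37 stood at 0.33 and -0.27 within scan day 1, so those rest on scan day 2. Cfp was nearest to Arid3b (0.94), Nceh1 (0.93) and Man2b2 (0.91). C5ar1 was nearest to Mmp9 (0.95), a gelatinase that is also in the neutrophil list, Fam110a (0.95) and Nfil3 (0.93). C3ar1 has none, as it was not tested.

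**Figure D3:**
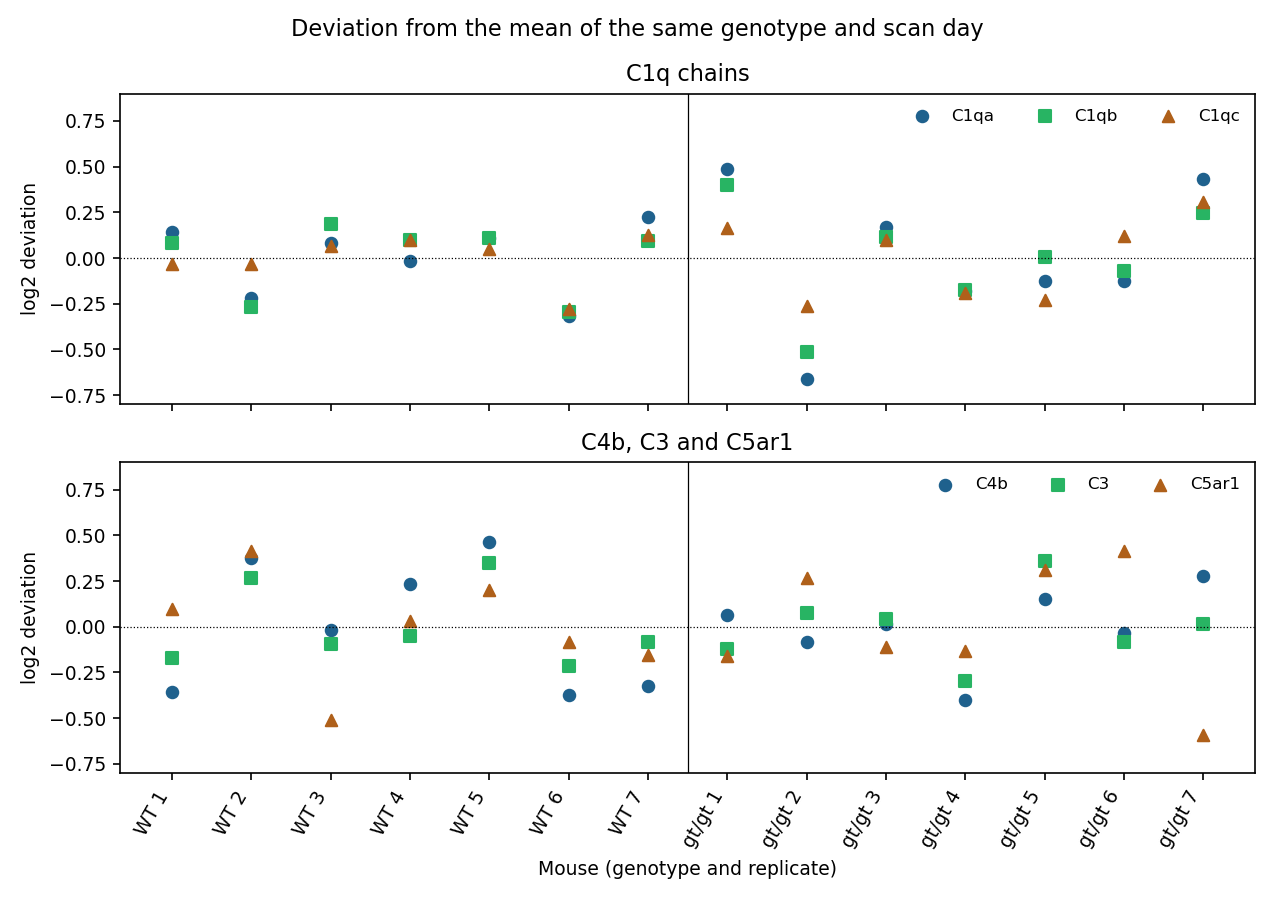
Deviation of each mouse from the mean of its genotype and scan day, on the log2 scale, for C1qa, C1qb and C1qc (upper panel) and for C4b, C3 and C5ar1 (lower panel), with WT mice to the left of the line and Sting gt/gt mice to the right. Points of the C1q chains move together, as in Sting gt/gt replicate 2 (-0.66 for C1qa), and C4b and C3 share the high WT replicate 5.

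The rest of the complement system was read from the same fit. Of 51 listed genes, all were on the array and 36 were tested, 25 of them higher and 11 lower without functional Sting, at a median of 0.14 beside 0.02 over all genes. Limma's unadjusted p was under 0.05 for 1 of the 36, where 3.54% of all genes passed, so the count is no more than the background. It was Lair1, an inhibitory receptor that binds C1q, at 0.24 (exact permutation p = 0.0332). In the lower direction 0 passed, and 0 had an adjusted p under 0.05. Among those not bright enough to be tested were Masp1, Masp2, Mbl1, Mbl2, Colec10, Hc, C8a, C8b, C9, Cfi, C4bp, Vtn, Vsig4 and Megf10.

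By role, the classical and lectin genes gave 8 higher and 1 lower of 9 tested, with C2, the protease partner of C4, at 0.08, the ficolin Fcna at -0.03 and the C1 protease C1s1 at 0.10. Cfd, the protease that cleaves factor B and a known product of fat cells, spread most between mice, with WT levels of 0.26 to 3.19 and Sting gt/gt levels of -2.01 to 3.68, and with a log2 fold change of -0.78 (95% interval -2.38 to 0.82). In the terminal pathway 3 of 7 genes were tested, C6 at -0.17, C7 at 0.24 and C8g at 0.19 (exact permutation p = 0.0414, limma adjusted p = 0.999). The fluid-phase regulators gave 3 higher and 1 lower of 4, with Clu at -0.04 and Serping1, the inhibitor of C1, at 0.18. The membrane regulators gave 3 higher and 4 lower of 7, with Cr1l at 0.00, Cd55 at -0.09 and Cd59a at 0.27. The receptors and C1q-binding proteins gave 9 higher and 3 lower of 12, with Cr2, the B cell receptor for C3 fragments, at -0.17, C1qbp at 0.17 and Calr at 0.13. On scan day 2, 8 of the 36 genes were higher and 4 lower at limma's unadjusted p under 0.05, and 0 after adjustment, beside the 23.7% of all genes that passed on that day.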

How the data were processed

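Spleen RNA of 14 mice was measured on 14 one-colour Agilent arrays, 1 per mouse. Per the file headers, the authors made the intensity values with Agilent Feature Extraction 11.0.1.1, with background correction inside each array and no scaling from array to array. A second set of values deposited by the authors is on a log2 scale, with scaling not stated, and its correlation with the log2 processed signal was 0.997 to 0.999 per array. There are 62976 spots on an array, 59305 of them not controls.

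From the scanner files, spots that the scanner software marked as outliers were dropped, the spots of a probe were averaged, and the 75th percentile of each array was subtracted on the log2 scale. A probe was tested when at least 7 of 14 arrays of either group showed it well above background, and the brightest tested probe stood for its gene. The depth of these arrays is a matter of signal over background, and 30781 to 34398 probes per array were well above it. Their number limits the precision.

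Genotypes were compared with lmFit and eBayes of limma 3.58.1 (R 4.3.3) over all 24908 genes, with Benjamini-Hochberg adjustment over all of them, and again within each scan day, with scan day as a term and with an interaction of genotype and scan day. Single genes were also compared by two-sided exact permutation tests over all splits of the arrays, or over the 1400 splits within scan days for the interaction. The latter is exact for no genotype effect on either day, and not for an equal effect on both. All intervals are 95% confidence intervals. Python 3.11.15 with numpy 2.4.6, pandas 2.3.3, scipy 1.17.1 and matplotlib 3.10.9 made the tables and figures, and limma was also tested on simulated data.

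The genes named are the members with every probe, Sting1, other complement genes past the threshold or, per role, the 3 of highest signal, the 3 nearest in pattern to the C1q mean and to each other member, and the gene with the brightest probe of each marker list. Some genes under this rule are not reported here. C4a, C5ar2, Cd93, Cxcr2, Mmp9, Mpo, Csf3r, Col1a1 and Col3a1 were named after their values were seen. The members, lists and comparisons were chosen with earlier results of these data known. The closing section gives the results under 17 other settings, with each array left out in turn, and under 41 settings chosen after the data were seen.

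Both genotypes carry replicate numbers 1 to 7. With group means removed, the correlation across genes of arrays with the same number was 0.16 to 0.53. Once scan-day means were removed it was -0.41 to 0.25, so the likeness of same-numbered arrays comes largely with the scan day. The reported fit and the permutation tests hold no pairing by number, which was used only in the replicate block, another setting. With the replicate block, 1408 genes passed in place of 882. The scan day and slide were read from the scanner files and stand for a scan time and a glass slide. Of 6 slides, 2 held both genotypes, with 3 WT and 2 Sting gt/gt arrays.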

Additional observations from a re-analysis of the deposited data

Results flagged for a closer look

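C1qc in WT replicate 6 lay at 4.17, far below the other 6 WT mice, whose levels began at 4.50; the gap was 0.66 of the whole range of the group. In all, 16 groups of 7 mice (8 genes in 2 genotypes) were looked at in this way, and chance alone singles out about 1 in 20 groups.

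In C3 the genotype difference on scan day 2 exceeded that on scan day 1 by 0.62 on the log2 scale (exact permutation p = 0.0171 within scan days), and it was singled out because the test of the difference between days passed 0.05. The same test singled out C5ar1, with 0.88 (exact permutation p = 0.0443). With adjustment over all genes, limma gave 0.202 for C3 and 0.21 for C5ar1. Slide and genotype cannot be told apart on scan day 2, and the cause of the difference was not tested.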

How the results depend on the processing

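The fold changes of the 8 tested members were recomputed under the 17 other settings, with each of the 14 arrays left out, and with a trend and weights from genes with no missing value, which gave 256 values. The settings added within a scan day are outside this tally. Of these 222 kept their sign and their side of the unadjusted threshold of 0.05, 4 kept their sign and passed it, and 30 changed sign, 0 of them with a limma p under 0.05. The replicate block changed no call of a member, and it moved the count of genes from 882 to 1408.

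Genes at an unadjusted p under 0.05 numbered 1928 in the authors' series table, 5660 with an intensity trend and array weights, 4824 with a trend and weights from genes with no missing value (chosen after seeing the data), 1803 with scan day in the model, 439 with slide as a random block and 5911 on scan day 2 alone. Leaving out 1 array gave 494 to 1963, the extremes being 1963 without Sting gt/gt replicate 1 and 494 without replicate 6, with 530 without replicate 5. Genes at an adjusted p under 0.05 numbered 1 in the reported fit, 2 with the mean of all tested probes, 7 and 4 in these weighted fits with a trend, and 316 on scan day 2 alone. They numbered 0 with median centring, no scaling, no filter on dim probes, the test of the paper's methods, the replicate block and slide as a fixed or random block, and 0 to 6 with 1 array left out. Of the members, 1 passed the unadjusted threshold in each of the weighted fits with a trend and 2 on scan day 2 alone, and 0 did with any array left out.

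Without scaling between arrays, C1qa stood at -0.024 and C1qb at -0.028, and in the authors' series table at -0.018 and -0.020. In the weighted fit with a trend they were -0.14 and -0.12, with weights from genes with no missing value -0.12 and -0.10, and on scan day 2 alone -0.10 and -0.086. With slide as a fixed block C4b was -0.20, C3 -0.25, Cfb -0.054 and C5ar1 -0.18, and with slide as a random block C4b was -0.00076 and C3 -0.062. The fixed block rests on the 5 arrays of slides with both genotypes. On scan day 1 alone C4b was -0.20, C3 -0.22, C5ar1 -0.28 and Cfp 0.0077. C5ar1 passed in the weighted fits with a trend (0.45, or 0.41 with weights from genes with no missing value), where weights and trend were not changed apart, and on scan day 2 alone (0.60), where C3 did too (0.39). With 1 array left out, C1qa ran from -0.045 to 0.15, C1qb from -0.045 to 0.12, C1qc from 0.0072 to 0.11, C4b from 0.11 to 0.27, C3 from 0.027 to 0.20, Cfb from 0.039 to 0.27, Cfp from -0.070 to 0.025 and C5ar1 from 0.13 to 0.38. The lowest values of C3 and Cfb were those without Sting gt/gt replicate 5.

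The following alternatives within scan days were chosen after seeing the data. On scan day 1, median centring put Cfb at -0.048 and Cfp at -0.056, and no scaling put them at -0.039 and -0.047. On scan day 2, C1qc was -0.031 in the authors' series table, -0.0023 without scaling and -0.033 with quantile normalization, C4b passed with median centring (0.51), and C3 did not pass without scaling (0.33), so that 1 member passed there. With 1 array of scan day 1 left out, C1qa ran from -0.029 to 0.55, C1qb from -0.013 to 0.45, C1qc from -0.012 to 0.20, C4b from -0.38 to -0.013, C3 from -0.31 to -0.091, Cfb from -0.075 to 0.11, Cfp from -0.10 to 0.13 and C5ar1 from -0.53 to -0.073, and 0 to 1 members passed. With 1 array of scan day 2 left out, C1qa ran from -0.24 to -0.024, C1qb from -0.185 to -0.027, C1qc from -0.041 to 0.14, C4b from 0.36 to 0.64, C3 from 0.27 to 0.51, Cfb from 0.11 to 0.50, Cfp from -0.14 to 0.018 and C5ar1 from 0.46 to 0.80, and 0 to 3 members passed. With scan day in the model, the count of members alone was recomputed under the added settings, and 0 passed in each. The cause was not tested for any of these.

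Signal over background limits C3ar1, which could not be read. The fold changes of the other members carry 95% intervals whose lower ends lie at 0.792-fold to 0.878-fold and upper ends at 1.16-fold to 1.65-fold. Slide and genotype cannot be told apart on scan day 2, nor genotype and colony on either day. Bulk RNA does not say which cells carried the transcripts, and protein was not analysed here.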

Other observations

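Among genes outside the 9, C4a, a close relative of C4b, ran on scan day 2 from -1.70 to -0.78 in the WT mice and from -1.03 to 0.17 in the Sting gt/gt mice, with a log2 fold change of 0.78 (limma adjusted p = 0.136, exact permutation p = 0.0571). C5ar2 and Cd93, a receptor of myeloid cells and endothelium, stood at 0.45 and 0.40 on that day, with limma adjusted p of 0.065 and 0.0988.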
